A study of Mus musculus with 16 samples.

Results

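Ankyrin repeat family genes were followed in LKR10 cells, a line derived from a mouse lung adenocarcinoma. Members were taken by symbol alone, and 42 of the 12321 genes in the expression table qualified: 26 Ankrd genes, 2 Anks genes, Ank1, Ank2 and Ank3, 6 Asb genes, and the single genes Ankhd1, Ankib1, Ankfy1, Ankle1 and Ankle2. Ankrd1 again left aside, the mouse annotation holds 77 protein-coding genes that the same symbols would select. The other members of those series were not analysed here. Levels are in CPM, reads per 1000000 of a library's effective size. A filter on low values, at least 1 CPM in 4 libraries with the small prior count of the deposited values included, was passed by 41 members and failed by Ankrd35. Ankrd35 was therefore treated through its whole reads.

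The ankyrin repeat is a short helix-turn-helix unit that stacks into a curved solenoid and serves as a surface for binding other proteins, not as an enzyme. Its carriers differ in what else they hold. The canonical ankyrins tie channels and adhesion proteins to the spectrin skeleton under the membrane. Asb proteins add a SOCS box and pick substrates for cullin 5 ubiquitin ligases, and Anks proteins add SAM domains. Ankrd is a naming series for repeat proteins of many unrelated functions, from endosomal sorting to chromatin.

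RNA was sequenced from 16 bulk libraries, 4 in each of 4 groups: 3D shAnkrd35, 3D shGFP, 2D shAnkrd35 and 2D shGFP. Every group was infected with a pLKO lentivirus that expresses a short hairpin RNA, against Ankrd35 or, as the control, against GFP, and every group received puromycin at 4 µg/ml for 48 h, with 96 h more in culture before RNA was taken. 2D cells formed a monolayer in DMEM with serum, and 3D cells were held in 0.5% methylcellulose, a viscous medium in which they do not attach to the dish. The labels do not state whether replicates are separate infections or cultures, nor how many hairpin sequences were used, so a p-value here speaks of variation from library to library, some of it perhaps technical.

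The libraries held 13.82 to 28.72 M reads in genes of the table. Of 8 epithelial markers 6 were in the table, with a summed level of 6600 to 7180 CPM in 3D shAnkrd35, 5990 to 6180 CPM in 3D shGFP, 7030 to 8560 CPM in 2D shAnkrd35 and 5260 to 5760 CPM in 2D shGFP. Keratin 8 and E-cadherin (Cdh1) were abundant, but Epcam stayed between 0.184 and 2.78 CPM. Of 7 lung epithelial markers only Foxa1 and Foxa2 were in the table, so the lung origin was not checked here beyond these. None of 8 lymphocyte and none of 5 erythroid markers was in it. Of 6 macrophage markers 3 were, and their sum was 24.2 to 40.9 CPM in 3D shAnkrd35, 20.4 to 22.6 CPM in 3D shGFP, 7.69 to 14.5 CPM in 2D shAnkrd35 and 4.71 to 6.08 CPM in 2D shGFP. The sum of 5 of 7 fibroblast markers was 12.6 to 48.2 CPM in 3D shAnkrd35, 25.3 to 29.0 CPM in 3D shGFP, 20.8 to 21.9 CPM in 2D shAnkrd35 and 31.8 to 34.6 CPM in 2D shGFP. Vwf, the 1 endothelial marker of 5 in the table, had 3.06 to 4.00 CPM in 3D shAnkrd35, 1.01 to 1.52 CPM in 3D shGFP, 4.42 to 5.66 CPM in 2D shAnkrd35 and 0.995 to 1.90 CPM in 2D shGFP. Tnnt2, the 1 of 8 muscle markers in the table, had 61.1 to 72.6 CPM in 3D shAnkrd35, 63.8 to 70.7 CPM in 3D shGFP, 113 to 139 CPM in 2D shAnkrd35 and 148 to 164 CPM in 2D shGFP. Between the hairpins the ranges of the epithelial sum, the macrophage sum and Vwf lay apart in both growth types. Those of the fibroblast sum and Tnnt2 lay apart in 2D only. The sum of Foxa1 and Foxa2 was apart in both. In 3D it was 148 to 167 CPM with shAnkrd35 and 112 to 120 CPM with shGFP. In 2D it was 112 to 125 CPM with shAnkrd35 and 76.6 to 82.9 CPM with shGFP. Single markers did not all follow their sum. With shAnkrd35 the keratins lay above shGFP in both growth types. Cdh1 lay below it in 2D (414 to 479 against 483 to 528 CPM) and Epcam in 3D (1.04 to 1.4 against 2.38 to 2.78 CPM). Of the fibroblast markers, Pdgfrb lay below it in 3D (6.65 to 9.12 against 18.1 to 20.7 CPM). Col1a2 lay above it there (1.66 to 10.5 against 0.695 to 1.55 CPM). The part of these markers in the results below was not tested. In bulk RNA, fewer cells with a transcript and less of it per cell cannot be told apart.

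The 2D libraries varied more than the 3D libraries. Over the 41 members the median SD on the log2 scale was 0.087 in 3D shAnkrd35, 0.070 in 3D shGFP, 0.168 in 2D shAnkrd35 and 0.102 in 2D shGFP, against 0.096, 0.070, 0.143 and 0.105 over all genes in the same order of groups. Replicate 1 of 2D shAnkrd35 was the highest library of its group for 24 members, or 58.5%, while it was the highest for 38.6% of all genes. Replicate 1 of 2D shGFP was the lowest of its group for 16 members, or 39.0%, against 35.0% of all genes. It did not stand out by this count. Replicate 2 of 2D shAnkrd35 was the lowest of its group for 39.0% of members and 30.6% of all genes. Replicate 4 of 3D shGFP was the lowest for 41.5% and 25.6%. Counts of calls are given with and without both 2D libraries numbered 1, and so are the 2D hairpin effects on Ankrd11, Ankrd12, Ankrd26 and Anks3.

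Ankrd35, the gene the hairpin is directed against, had the lowest mean level of any gene in the table. The other 12320 genes all had at least 1 CPM in 8 libraries. The rank therefore follows from the filter made before deposit and does not place Ankrd35 among genes outside the table. Its read counts were 12, 11, 9 and 9 in 3D shAnkrd35, against 14, 17, 16 and 16 in 3D shGFP. In 2D they were 2, 6, 7 and 1 with shAnkrd35, against 2, 3, 6 and 7 with shGFP. In reads the 3D groups did not overlap and the 2D groups did. As levels, the means were 0.501 ± 0.0929 CPM in 3D shAnkrd35 and 0.597 ± 0.0546 CPM in 3D shGFP, and 0.187 ± 0.137 CPM in 2D shAnkrd35 and 0.219 ± 0.124 CPM in 2D shGFP (SD, n = 4 each). On the CPM scale the 3D groups overlapped as well, through replicate 3 of 3D shAnkrd35, the shallowest library, at 0.632 CPM.

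The level of Ankrd35 with shAnkrd35 was not shown to differ from that with shGFP in either growth type. The ratio of pooled reads per effective library size was 0.815 in 3D (exact 95% interval 0.536 to 1.23, two-sided exact permutation p = 0.143) and 0.889 in 2D (0.424 to 1.85, exact permutation p = 0.657). Both intervals hold 1, and a level down to 0.536 of that with shGFP in 3D, or 0.424 in 2D, lies within them. Without replicate 3 of 3D shAnkrd35 the log2 ratio in 3D was -0.39 with an exact permutation p of 0.0286, and in 2D its sign turned when 1 library was left out (log2 ratio -0.63 to 0.10). Between growth types Ankrd35 was higher in 3D with either hairpin, 2.56-fold with shAnkrd35 (1.41 to 4.89) and 2.80-fold with shGFP (1.64 to 5.02), and each exact permutation p, 0.029, is the smallest that 70 permutations can give. The difference with shAnkrd35 had p = 0.0571 by the same exact permutation test, at a log2 ratio of 1.29, without replicate 3 of 3D shAnkrd35. The intervals cover counting error only.

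**Figure D1:**
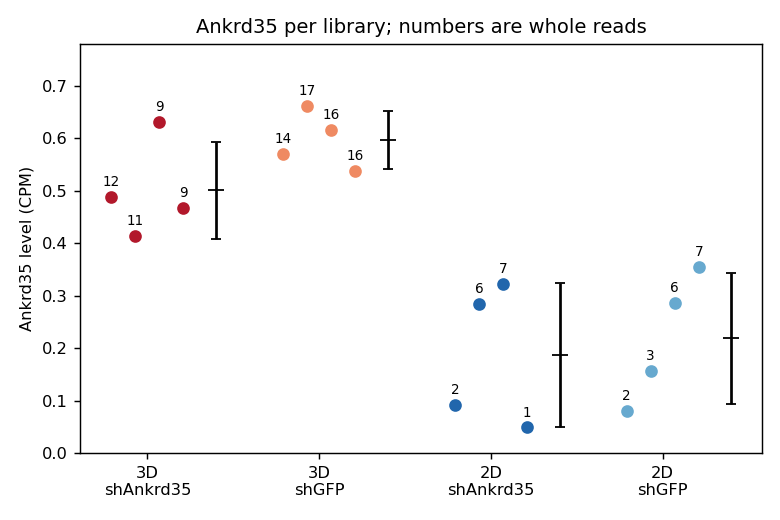
Ankrd35 level in CPM on a linear axis that starts at 0, 1 point per library with its read number beside it, and the mean with SD of each of the 4 groups. The 3D libraries hold 9 to 17 reads and the 2D libraries 1 to 7.

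Read per kilobase of exon, the family spanned levels from 24.5 CPM per kb for Ankrd40 to 0.0921 CPM per kb for Ankrd35, as means over the 16 libraries. Ankrd11 (23.0 CPM per kb), a chromatin regulator that binds nuclear receptor coactivators, and Ankrd13b (21.4 CPM per kb), a ubiquitin-binding protein of internalised receptors, came next. Among the Asb genes Asb8 led with 14.9 CPM per kb, among the single genes Ankhd1 with 16.1, among the Anks genes Anks3 with 5.85, and among the canonical ankyrins Ank1 with 3.11. Ank2 was at 0.336 CPM per kb, the lowest of the canonical ankyrins. The median member had 5.26 CPM per kb, against 6.78 over all genes, and a longer exonic sequence, 6020.5 against 4409.0 bp. GC content was alike, with medians of 49.6% and 49.7%. Exons of 15 members overlap another annotated gene, by up to 17.6% of their length in Ankhd1, whose overlap is on the same strand. Reads from a same-strand overlap could belong to either gene. For genes on opposite strands this holds if strand was not used in the counting. The members lie on 18 chromosomes, and Ankrd35 and Ankrd34a are 70.4 kb apart on chromosome 3.

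Promoters of 36 of the 42 members were matched by symbol in RefSeq (build GRCm38.p6), each 300 bases long from 250 before to 50 after the gene's start. The 5 below belong to the hairpin's target, to 2 members that were lower with shAnkrd35 in both growth types (Ankib1 and Ankrd27) and to 2 that were higher in 3D with both hairpins (Ankrd12 and Ankrd16). Capitals mark matches, on either strand, to 7 motifs, and no 2 matches overlap in these windows. Searched were CCGGAA for the core of ETS factors, GGGCGG for the GC box that Sp1 binds, and the CCAAT box by the letters of its name. The others were TGCGCA for the core of NRF1, CACGTG for the E-box of bHLH factors, TGACGTCA for the cAMP response element, and TGATGNAAN for the amino acid response element of ATF4. Each is printed 5′ to 3′ on the gene's strand. They are Ankrd35 at chr3:96669881-96670180 (plus), Ankib1 at chr5:3803075-3803374 (minus), Ankrd27 at chr7:35585997-35586296 (plus), Ankrd12 at chr17:66076997-66077296 (minus) and Ankrd16 at chr2:11777503-11777802 (plus).
Ankrd35: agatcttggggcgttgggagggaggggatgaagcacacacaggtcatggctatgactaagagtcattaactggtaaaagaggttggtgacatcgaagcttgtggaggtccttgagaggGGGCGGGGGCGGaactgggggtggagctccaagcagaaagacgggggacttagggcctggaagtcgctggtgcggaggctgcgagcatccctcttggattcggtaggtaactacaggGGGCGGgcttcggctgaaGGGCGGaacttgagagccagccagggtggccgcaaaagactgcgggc
Ankib1: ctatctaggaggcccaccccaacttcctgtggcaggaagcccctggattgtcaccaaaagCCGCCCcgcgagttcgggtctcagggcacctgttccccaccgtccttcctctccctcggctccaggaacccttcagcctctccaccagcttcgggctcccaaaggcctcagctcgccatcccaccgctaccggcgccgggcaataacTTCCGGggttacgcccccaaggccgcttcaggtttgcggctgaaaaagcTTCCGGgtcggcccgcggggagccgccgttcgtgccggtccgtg
Ankrd27: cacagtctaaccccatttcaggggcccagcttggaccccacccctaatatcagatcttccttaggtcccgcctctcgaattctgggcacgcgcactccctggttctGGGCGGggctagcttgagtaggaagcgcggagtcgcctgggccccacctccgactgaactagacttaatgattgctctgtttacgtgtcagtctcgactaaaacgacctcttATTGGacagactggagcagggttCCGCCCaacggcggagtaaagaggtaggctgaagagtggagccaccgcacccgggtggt
Ankrd12: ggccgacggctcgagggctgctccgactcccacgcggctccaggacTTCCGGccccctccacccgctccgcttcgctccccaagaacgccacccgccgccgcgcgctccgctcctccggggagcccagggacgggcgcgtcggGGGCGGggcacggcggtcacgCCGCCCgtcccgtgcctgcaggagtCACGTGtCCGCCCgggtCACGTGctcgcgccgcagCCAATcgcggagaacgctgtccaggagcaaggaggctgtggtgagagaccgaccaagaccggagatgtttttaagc
Ankrd16: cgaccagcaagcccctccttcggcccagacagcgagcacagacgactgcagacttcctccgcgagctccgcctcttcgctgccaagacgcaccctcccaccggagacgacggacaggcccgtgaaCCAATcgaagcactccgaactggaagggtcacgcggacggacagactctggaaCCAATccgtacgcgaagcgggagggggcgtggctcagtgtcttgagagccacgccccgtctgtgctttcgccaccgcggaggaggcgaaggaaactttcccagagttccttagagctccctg

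The Ankrd35 window held 4 GC boxes, at -132, -126, -15 and 4 from the start, and no match to the other motifs. The Ankib1 window held 2 ETS cores at -43 and 7 and 1 GC box at -190, and the Ankrd27 window 2 GC boxes and a CCAAT box at -32. Ankrd12 had 3 GC boxes, E-boxes at -61 and -44, an ETS core and a CCAAT box, and Ankrd16 had CCAAT boxes at -125 and -72. Over the 36 promoters a GC box was found in 75.0% and an ETS core in 27.8%, against 35.7% and 14.9% of all 32851 promoters in the RefSeq set. Member promoters are 1 per gene and belong to genes of the expression table. The 32851 were limited in neither way, so the sets are unlike. Promoters of the other genes in the expression table were not compared. Member promoters were also richer in GC, with a median of 64.0% against 52.7%. A CCAAT box stood in 38.9% of member promoters and 37.4% of all, an NRF1 core in 8.33% and 7.76%, an E-box in 2.78% and 7.15%, a cAMP response element in 2.78% and 1.79%, and the amino acid response element in 0 of 36 and 3.95% of all. Of the 18 promoters of members that were lower with shAnkrd35 in 2D, 77.8% held a GC box, 27.8% an ETS core and 33.3% a CCAAT box, against 70.6%, 29.4% and 47.1% of the 17 promoters of other tested members. A match is a run of letters, not a shown binding site.

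In 3D, calls with shAnkrd35 ran in both directions and were small. At an adjusted p under 0.05 in limma (all 12320 genes, 4 groups in 1 fit), 6 of 41 members fell and 8 rose, or 14.6% and 19.5%, beside 14.6% and 15.0% of all genes, so the shares lie near the background, as do the 34.1% of members and 29.7% of all genes called either way. The groups did not overlap for 10 members on the lower side and 5 on the higher side, against 19.4% and 18.8% of all genes. No member reached a 2-fold change, and the range ran from -0.48 for Ankib1 to 0.59 for Ank2. This split moved with the settings: quantile normalization gave 6 higher and 7 lower (16.5% and 15.1% of all genes), scaling by library totals 7 and 9 (14.1% and 15.6%), and a fit on the 8 libraries of this comparison alone 9 and 11 (20.1% and 21.2%). It moved most, to 4 and 12 (15.2% and 18.3%), with the trend of each library on exonic length and GC content removed. Of the 8 members that rose, 6 lost the call without 1 library, with adjusted p up to 0.118 for Ankrd34a, 0.0904 for Ankhd1, 0.0598 for Ankrd13d, 0.0996 for Ankrd24, 0.167 for Ankrd9 and 0.0738 for Anks1. Ankrd13b, among the 6 that fell, reached 0.113.

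In 2D, most of the family's calls with shAnkrd35 were downward. By the same test 21 of 41 members fell and 5 rose, which is 51.2% and 12.2%, beside 28.8% and 29.0% of all genes. Called either way were 63.4% of members and 57.9% of all genes. The median member had a log2 fold change of -0.28, against 0.01 over all genes. The groups did not overlap for 15 members on the lower side and 4 on the higher side, where the same held for 17.5% and 22.3% of all genes. Of the 25 tested Ankrd genes 17 fell and 2 rose (Ankrd24 and Ankrd34a), and 2 of 3 canonical ankyrins fell. Of the 6 Asb genes 1 fell, of the 5 single genes 1 fell and 1 rose, and both Anks genes rose. Without both 2D libraries numbered 1 there were 27 members lower and 6 higher, beside 33.6% and 31.5% of all genes.

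With shAnkrd35, members differed between 3D and 2D growth in both directions, more of them upward. In 3D 17 members were higher and 10 lower than in 2D, or 41.5% and 24.4%, beside 34.4% and 36.0% of all genes, and either way 65.9% of members and 70.4% of all genes were called. The groups did not overlap for 16 members on the higher side and 8 on the lower side, against 29.9% and 29.3% of all genes. Library totals gave 20 higher and 7 lower, beside 40.6% and 28.2% of all genes, with Ankrd13d, Asb1 and Asb3 no longer called. Leaving out both 2D libraries numbered 1 gave 19 and 9, beside 36.2% and 37.7%. The upward tilt was gone with the trend of each library on exonic length and GC content removed, at 15 and 15, beside 29.6% and 38.3%. Without 1 library the calls of Ankrd52 (adjusted p up to 0.0632), Asb1 (0.120) and Asb3 (0.0538) were lost.

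With shGFP, more of the calls between growth types were downward. In 3D 8 members were higher and 17 lower than in 2D, or 19.5% and 41.5%, beside 35.2% and 32.1% of all genes, and either way 61.0% of members and 67.2% of all genes were called. The groups did not overlap for 9 on the higher side and 15 on the lower side, against 33.3% and 31.6% of all genes. All 3 canonical ankyrins were lower in 3D, and so were 10 of 25 Ankrd genes. Ank1 lost that call with the trend on exonic length and GC content removed, at -0.12 (adjusted p = 0.0537). Ankrd13a, lower in 3D at -0.22, lost its call there too and ran from -0.24 to -0.07 over the alternative runs. Scaling by library totals, which shifts the median of all genes in this comparison to 0.15 (log2), gave 13 higher and 13 lower, beside 45.2% and 23.8% of all genes, and under it Ankrd13a, Ankfy1, Ankrd52 and Ankib1 were no longer called. Without 1 library, Ankfy1 (adjusted p up to 0.0846), Ankib1 (0.129) and Ankrd52 (0.0539) lost the call too. Without both 2D libraries numbered 1 there were 9 higher and 17 lower, beside 34.8% and 32.9% of all genes. The growth comparisons with the 2 hairpins have no library in common, but each shares its libraries with the hairpin comparisons. With both hairpins 8 members were higher in 3D (Ankle1, Ankrd10, Ankrd12, Ankrd16, Ankrd28, Ankrd44, Ankrd49 and Asb13) and 9 were lower (Ank3, Ankrd13d, Ankrd27, Ankrd34a, Ankrd40, Ankrd46, Ankrd54, Asb1 and Asb7), while Ankib1 and Ankrd52 were higher with shAnkrd35 and lower with shGFP. Those joint calls are 19.5%, 22.0% and 4.88% of the members, beside 24.7%, 24.2% and 1.20% of all genes, and 0 members were lower with shAnkrd35 and higher with shGFP, beside 2.04%. With the trend of each library on exonic length and GC content removed, Ankrd28 and Ankrd49 were called lower in 3D with shAnkrd35 and not called with shGFP.

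The direct test of the difference between the hairpin effects, 3D minus 2D, called 18 members above 0 and 1, Ankle1, below 0. That is 43.9% and 2.44% of the members, beside 17.1% and 18.6% of all genes, and either way 46.3% of members and 35.8% of all genes were called. The median difference was 0.23 (log2) over the members and 0.00 over all genes. Leaving out 1 library gave 15 to 19 members above 0 and 1 to 3 below, beside 12.8% to 23.1% and 14.8% to 23.5% of all genes, and Ankhd1 (adjusted p up to 0.0716), Ankrd13c (0.0551) and Ankrd42 (0.0832) lost the call in such fits. Without both 2D libraries numbered 1 there were 20 above 0 and 2 below, beside 27.3% and 24.3% of all genes.

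**Figure D2:**
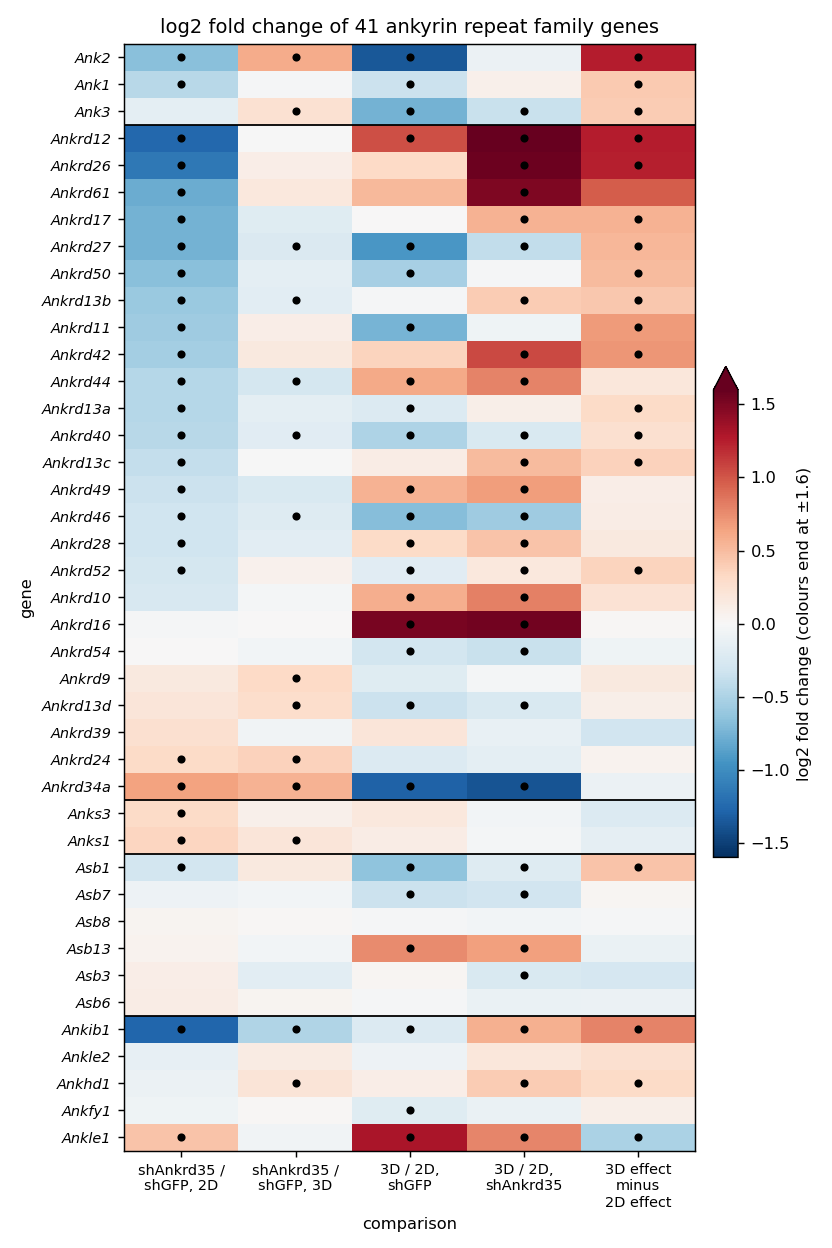
Heat map of the log2 fold changes of the 41 members (rows, by subfamily) in the 4 comparisons and in the difference of hairpin effects (columns), with the colour scale ending at 1.6 in either direction and black dots for an adjusted p under 0.05. The 2D hairpin column holds 21 lower and 5 higher calls, and the column of the difference 18 above and 1 below 0.

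Removal of each library's trend on exonic length and GC content ended some calls, turned some directions and moved some values by over 1.5 times. For many of these results, but not for each, the trend-removed log2 value stands beside the gene. The canonical ankyrins Ank1, Ank2 and Ank3 encode ankyrin-R, ankyrin-B and ankyrin-G, the adaptors between membrane proteins and spectrin. Ank2 had 9.13, 10.4, 9.61 and 13.4 CPM in 3D shAnkrd35, against 6.56, 6.59, 7.72 and 7.09 CPM in 3D shGFP. Ank2 had 13.0, 10.7, 9.86 and 11.7 CPM in 2D shAnkrd35, against 16.1, 20.0, 16.5 and 19.9 CPM in 2D shGFP. The hairpin groups did not overlap in either growth type, and they stood in opposite order: Ank2 with shAnkrd35 lay above shGFP in 3D and below it in 2D. The log2 fold changes were 0.59 (SE 0.12, adjusted p = 0.00125) in 3D and -0.67 (SE 0.12, adjusted p = 0.000175) in 2D, and the difference between them was 1.26 (SE 0.17, adjusted p = 4.9e-05). Both calls were kept in every alternative run. Trend-removed, the value in 2D was -0.33 and the difference 0.75, both still called. Between growth types Ank2 stood at -0.10 (SE 0.12, adjusted p = 0.481) with shAnkrd35 and was lower in 3D with shGFP, at -1.36 (SE 0.12, adjusted p = 3.32e-08). The first of these was -0.37 (adjusted p = 0.000855) with the trend removed, a call. Of the 41 members, Ank2 was the 1 called higher in 3D and lower in 2D with shAnkrd35 (2.44%, beside 1.21% of all genes), and 0 members were called the other way round, beside 1.66% of all genes.

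Ank1 had 39.5, 35.6, 40.7 and 42.6 CPM in 3D shAnkrd35, against 40.9, 39.7, 40.7 and 39.4 CPM in 3D shGFP, and 42.1, 36.8, 33.8 and 37.6 CPM in 2D shAnkrd35, against 50.2, 46.3, 53.2 and 53.9 CPM in 2D shGFP. The groups overlapped in 3D and not in 2D. Its hairpin effect was -0.02 (SE 0.07, adjusted p = 0.842) in 3D, and it fell with shAnkrd35 in 2D, at -0.44 (SE 0.07, adjusted p = 5.39e-05). Exons of Ank1 overlap the antisense gene Gm15816 over 6.4% of their length. Ank3 had 67, 65.2, 66.7 and 70.4 CPM in 3D shAnkrd35, against 60.4, 53.7, 57.3 and 56.2 CPM in 3D shGFP, where the groups did not overlap. It had 102, 78.3, 84.6 and 82.1 CPM in 2D shAnkrd35, against 93.4, 91.7, 98.6 and 102 CPM in 2D shGFP, where they did. The log2 fold change of Ank3 was 0.24 (SE 0.07, adjusted p = 0.0116) in 3D and -0.16 (SE 0.07, adjusted p = 0.054) in 2D. Trend-removed, Ank3 was at 0.09 (adjusted p = 0.218) in 3D, no longer called, and at 0.21 (adjusted p = 0.00292) in 2D, where it then was. In 3D Ank3 was lower than in 2D with shAnkrd35, at -0.36 (SE 0.07, adjusted p = 0.000158), and with shGFP, at -0.76 (SE 0.07, adjusted p = 3.58e-08). The value with shAnkrd35 was -0.67 with the trend removed.

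Among genes of ubiquitin transfer, Ankib1 had the lowest hairpin effects. It encodes a RING-between-RING ubiquitin ligase. Ankib1 had 42.8, 47.6, 47.9 and 50.6 CPM in 3D shAnkrd35, against 69.4, 61.6, 66.2 and 66.5 CPM in 3D shGFP. Ankib1 had 37.6, 26.4, 31.2 and 32.3 CPM in 2D shAnkrd35, against 68.3, 85.4, 73.4 and 80.5 CPM in 2D shGFP. Neither pair of groups overlapped, and the gap was wider in 2D. The log2 fold change was -0.48 (SE 0.09, adjusted p = 0.000625) in 3D and -1.27 (SE 0.09, adjusted p = 8.68e-09) in 2D, the lowest of all members in both, and the difference of 0.79 (SE 0.13, adjusted p = 0.000253) was itself called. With shAnkrd35 Ankib1 was higher in 3D than in 2D, at 0.57 (SE 0.09, adjusted p = 2.8e-05), and with shGFP it was lower, at -0.22 (SE 0.09, adjusted p = 0.0413). That last call was lost under library totals (log2 fold change -0.10). Trend-removed, the growth effects on Ankib1 were 0.23 with shAnkrd35 and -0.37 with shGFP, both called.

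Of the 6 Asb genes, substrate receptors of cullin 5 ligases, the hairpin comparisons called 1. Asb1 was lower in 2D, at -0.29 (SE 0.08, adjusted p = 0.00694), with 20.9 to 26.2 CPM with shAnkrd35 and 25.8 to 31.8 CPM with shGFP; these ranges overlap. The 6 genes lay between -0.29 and 0.12 (log2) in 2D and between -0.17 and 0.15 in 3D. With the trend removed Asb3 was called higher in 2D as well, at 0.52 (adjusted p = 0.000811), against 0.10 as deposited. Asb8, the most abundant of them per kb, had 37.0, 35.8, 34.9 and 35.6 CPM in 3D shAnkrd35, against 36.5, 36.1, 33.6 and 35.4 CPM in 3D shGFP, and 32.0, 35.3, 42.6 and 37.9 CPM in 2D shAnkrd35, against 34.5, 37.4, 37.0 and 34.4 CPM in 2D shGFP. Its 4 groups overlapped and no comparison called it. Asb13 had 32.2, 30.4, 32.5 and 34.5 CPM in 3D shAnkrd35, against 34.6, 32.7, 32.9 and 34.3 CPM in 3D shGFP. Asb13 had 22.0, 18.6, 20.0 and 21.5 CPM in 2D shAnkrd35, against 20.3, 20.9, 20.7 and 17.3 CPM in 2D shGFP. Every 3D library of Asb13 lay above every 2D library, and its growth difference was 0.66 (SE 0.07, adjusted p = 3.37e-07) with shAnkrd35 and 0.76 (SE 0.07, adjusted p = 4.34e-08) with shGFP. Asb7 went the other way, with -0.31 (SE 0.07, adjusted p = 0.000903) and -0.34 (SE 0.07, adjusted p = 0.000476) for the same hairpins, and -0.51 with shAnkrd35 once the trend was removed.

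Ankrd27 encodes VARP, an endosomal protein that activates Rab21 and binds VAMP7 and retromer. It had 35.7, 34.5, 32.3 and 37.2 CPM in 3D shAnkrd35, against 39.3, 40.5, 43.2 and 41 CPM in 3D shGFP. Ankrd27 had 51.3, 45.7, 45.0 and 43.0 CPM in 2D shAnkrd35, against 76.4, 72.6, 82.8 and 82.1 CPM in 2D shGFP. With shAnkrd35 every library lay below every shGFP library of the same growth type, and with either hairpin every 3D library lay below every 2D library. The hairpin effect was -0.23 (SE 0.06, adjusted p = 0.00957) in 3D and -0.76 (SE 0.06, adjusted p = 4.16e-08) in 2D, with a difference of 0.53 (SE 0.09, adjusted p = 0.000303). The growth effect was -0.40 (SE 0.06, adjusted p = 2.28e-05) with shAnkrd35 and -0.93 (SE 0.06, adjusted p = 9.12e-10) with shGFP. All 5 calls were kept in every alternative run.

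Ankrd50, which works in endosomal recycling with SNX27, retromer and WASH, had 102, 106, 108 and 111 CPM in 3D shAnkrd35, against 121, 114, 120 and 122 CPM in 3D shGFP. Ankrd50 had 129, 101, 99.3 and 107 CPM in 2D shAnkrd35, against 163, 162, 186 and 180 CPM in 2D shGFP. The shAnkrd35 libraries lay below the shGFP libraries in both growth types, without overlap. The hairpin effect on Ankrd50 was -0.16 (SE 0.07, adjusted p = 0.0927) in 3D, and in 2D the gene fell, at -0.67 (SE 0.07, adjusted p = 7.3e-07). Ankrd13a, Ankrd13b and Ankrd13d encode ubiquitin-binding proteins of internalised EGF receptor. Ankrd13b had 86.1, 84.2, 81.4 and 75.7 CPM in 3D shAnkrd35, against 92.3, 98.8, 89.4 and 87.2 CPM in 3D shGFP, and 60.5, 66.0, 61.3 and 57.7 CPM in 2D shAnkrd35, against 97.8, 89.9, 96.0 and 87.9 CPM in 2D shGFP. The hairpin groups lay apart in both growth types, and Ankrd13b fell in 3D, at -0.17 (SE 0.06, adjusted p = 0.0324), and in 2D, at -0.60 (SE 0.06, adjusted p = 2.16e-07). Ankrd13a had -0.16 (SE 0.06, adjusted p = 0.0508) in 3D and fell in 2D, at -0.46 (SE 0.06, adjusted p = 5.26e-06). Ankrd13c, of the same naming group, had -0.01 (SE 0.09, adjusted p = 0.936) in 3D and fell in 2D, at -0.38 (SE 0.09, adjusted p = 0.0012). The direction in 2D turned with the trend removed, to 0.09 (adjusted p = 0.128), no longer a call.

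Ankrd13d was called in the other direction. It had 12.9, 14.3, 13.3 and 11.8 CPM in 3D shAnkrd35, against 11.2, 11.2, 10.8 and 9.78 CPM in 3D shGFP, and 16, 17.9, 14.2 and 14.5 CPM in 2D shAnkrd35, against 14.1, 14.2, 13.2 and 13.2 CPM in 2D shGFP. The shAnkrd35 libraries lay above the shGFP libraries in 3D, and the groups overlapped in 2D. It rose with shAnkrd35 in 3D, at 0.28 (SE 0.08, adjusted p = 0.0161), without being called in 2D, at 0.19 (SE 0.08, adjusted p = 0.063), and it was lower in 3D with shAnkrd35, at -0.25 (SE 0.08, adjusted p = 0.011), and with shGFP, at -0.35 (SE 0.08, adjusted p = 0.00129). With shAnkrd35 that growth difference was lost under library totals (-0.17, adjusted p = 0.0865) and with the trend removed, at -0.02 (adjusted p = 0.842). Ankfy1, the Rab5 effector Rabankyrin-5, ranged over 142 to 167 CPM with shAnkrd35 and 141 to 154 CPM with shGFP in 3D and 148 to 195 CPM with shAnkrd35 and 157 to 178 CPM with shGFP in 2D. The hairpin effects on Ankfy1 were 0.02 (SE 0.08, adjusted p = 0.896) in 3D and -0.07 (SE 0.08, adjusted p = 0.446) in 2D.

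Ankrd12, a gene of the nucleus, is the close relative of Ankrd11 and, like it, binds nuclear receptor coactivators. Ankrd12 had 41.9, 50.3, 41.8 and 48.4 CPM in 3D shAnkrd35, against 48.7, 46.1, 45.0 and 43.3 CPM in 3D shGFP, where the groups overlapped. Ankrd12 had 10.5, 7.13, 8.94 and 10.8 CPM in 2D shAnkrd35, against 12.4, 34.0, 21.4 and 27.3 CPM in 2D shGFP, where they did not. Replicate 1 was by far the lowest of the 2D shGFP libraries. The hairpin effect on Ankrd12 was -0.01 (SE 0.23, adjusted p = 0.984) in 3D and -1.26 (SE 0.23, adjusted p = 0.000316) in 2D, and the difference 1.26 (SE 0.32, adjusted p = 0.00897). Ankrd12 was higher in 3D by 2.29 (SE 0.23, adjusted p = 6.12e-07) with shAnkrd35, the highest value of any member in any comparison, and by 1.03 (SE 0.23, adjusted p = 0.00103) with shGFP. Without both 2D libraries numbered 1 the hairpin effect in 2D was -1.61. Trend-removed, the hairpin effect in 2D was -0.70 and the difference 0.72, and the growth effects were 1.27 with shAnkrd35 and 0.56 with shGFP, all called.

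Ankrd11 had 336, 320, 337 and 353 CPM in 3D shAnkrd35, against 309, 315, 326 and 299 CPM in 3D shGFP. Ankrd11 had 427, 322, 329 and 343 CPM in 2D shAnkrd35, against 504, 516, 544 and 532 CPM in 2D shGFP. The hairpin groups overlapped in 3D and lay apart in 2D. Ankrd11 had a hairpin effect of 0.11 (SE 0.07, adjusted p = 0.269) in 3D and fell with shAnkrd35 in 2D, at -0.57 (SE 0.07, adjusted p = 3.65e-06), and with shGFP it was lower in 3D, at -0.75 (SE 0.07, adjusted p = 5.74e-08), the direction opposite to that of Ankrd12. Without both 2D libraries numbered 1 the hairpin effect on Ankrd11 in 2D was -0.68. Exons of Ankrd11 overlap the antisense gene Gm45894 over 7.8% of their length. Ankrd26, a protein of the distal appendages of centrioles, had 24.5, 27.5, 26.7 and 27.4 CPM in 3D shAnkrd35, against 26.0, 23.7, 24.3 and 24.6 CPM in 3D shGFP, and 12, 5.8, 8.16 and 11 CPM in 2D shAnkrd35, against 13.0, 28.4, 16.9 and 24.1 CPM in 2D shGFP. The groups overlapped in 3D and lay apart in 2D, with replicate 1 again the lowest 2D shGFP library. Ankrd26 had 0.10 (SE 0.23, adjusted p = 0.788) in 3D, fell in 2D, at -1.14 (SE 0.23, adjusted p = 0.000675), and was higher in 3D with shAnkrd35, at 1.57 (SE 0.23, adjusted p = 2.26e-05). Without both 2D libraries numbered 1 the hairpin effect on Ankrd26 in 2D was -1.48.

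Ankrd16 binds alanyl-tRNA synthetase and takes up serine that the enzyme has wrongly activated. It had 37.4, 36.8, 32.8 and 30.5 CPM in 3D shAnkrd35, against 38.2, 38.5, 33.4 and 28.4 CPM in 3D shGFP. Ankrd16 had 11.2, 10.9, 10.7 and 14.4 CPM in 2D shAnkrd35, against 9.9, 17.1, 10.4 and 11.5 CPM in 2D shGFP. Every 3D library lay above every 2D library, and the hairpin groups overlapped in both growth types. The growth effect was 1.54 (SE 0.15, adjusted p = 3.03e-07) with shAnkrd35 and 1.52 (SE 0.15, adjusted p = 2.89e-07) with shGFP, the highest of the members with that hairpin. The hairpin effects were 0.00 (SE 0.15, adjusted p = 0.989) in 3D and -0.02 (SE 0.15, adjusted p = 0.906) in 2D.

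Ankrd17 and Ankhd1 are paralogs that carry KH RNA-binding domains and correspond to Drosophila mask. Ankrd17 had 246, 256, 252 and 269 CPM in 3D shAnkrd35, against 295, 280, 302 and 298 CPM in 3D shGFP, and 208, 152, 151 and 187 CPM in 2D shAnkrd35, against 263, 298, 305 and 304 CPM in 2D shGFP. The shAnkrd35 libraries of Ankrd17 were the lower ones in both growth types, with no overlap. Its hairpin effect was -0.20 (SE 0.08, adjusted p = 0.0826) in 3D, and it fell in 2D, at -0.76 (SE 0.08, adjusted p = 1.26e-06). Trend-removed, Ankrd17 was called lower in both, at -0.34 in 3D and -0.35 in 2D. Ankhd1 had 178, 167, 168 and 180 CPM in 3D shAnkrd35, against 157, 144, 151 and 146 CPM in 3D shGFP, and 159, 120, 117 and 130 CPM in 2D shAnkrd35, against 130, 144, 141 and 142 CPM in 2D shGFP. The groups lay apart in 3D and overlapped in 2D. Ankhd1 rose in 3D, at 0.21 (SE 0.07, adjusted p = 0.0358), and had -0.09 (SE 0.07, adjusted p = 0.3) in 2D. Ankhd1 shares 17.6% of its exonic length with an overlapping gene on the same strand, so its level is uncertain by what the counting assigned there.

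Ankle1 and Ankle2 carry LEM domains: Ankle1 is an endonuclease that cuts chromatin bridges between daughter cells, and Ankle2 works on BAF when the nuclear envelope reassembles. Ankle1 had 14.8, 14.6, 13.8 and 13.1 CPM in 3D shAnkrd35, against 16.3, 15.2, 15.6 and 11.9 CPM in 3D shGFP. Ankle1 had 7.13, 8.65, 8.06 and 8.82 CPM in 2D shAnkrd35, against 5.72, 5.81, 6.52 and 5.62 CPM in 2D shGFP. Every 3D library exceeded every 2D library of the same hairpin, and in 2D the hairpin groups did not overlap. Ankle1 had -0.06 (SE 0.10, adjusted p = 0.726) with shAnkrd35 in 3D, rose in 2D, at 0.46 (SE 0.10, adjusted p = 0.000954), and was higher in 3D by 0.78 (SE 0.10, adjusted p = 2.74e-06) with shAnkrd35 and by 1.30 (SE 0.10, adjusted p = 5.52e-09) with shGFP. Its difference of hairpin effects, -0.51 (SE 0.14, adjusted p = 0.0105), was the only one called below 0. Its rise in 2D was 0.26 (adjusted p = 0.0203) with the trend removed. Ankle2 was called in no comparison, with hairpin effects of 0.13 (SE 0.09, adjusted p = 0.314) in 3D and -0.13 (SE 0.09, adjusted p = 0.234) in 2D.

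**Figure D3:**
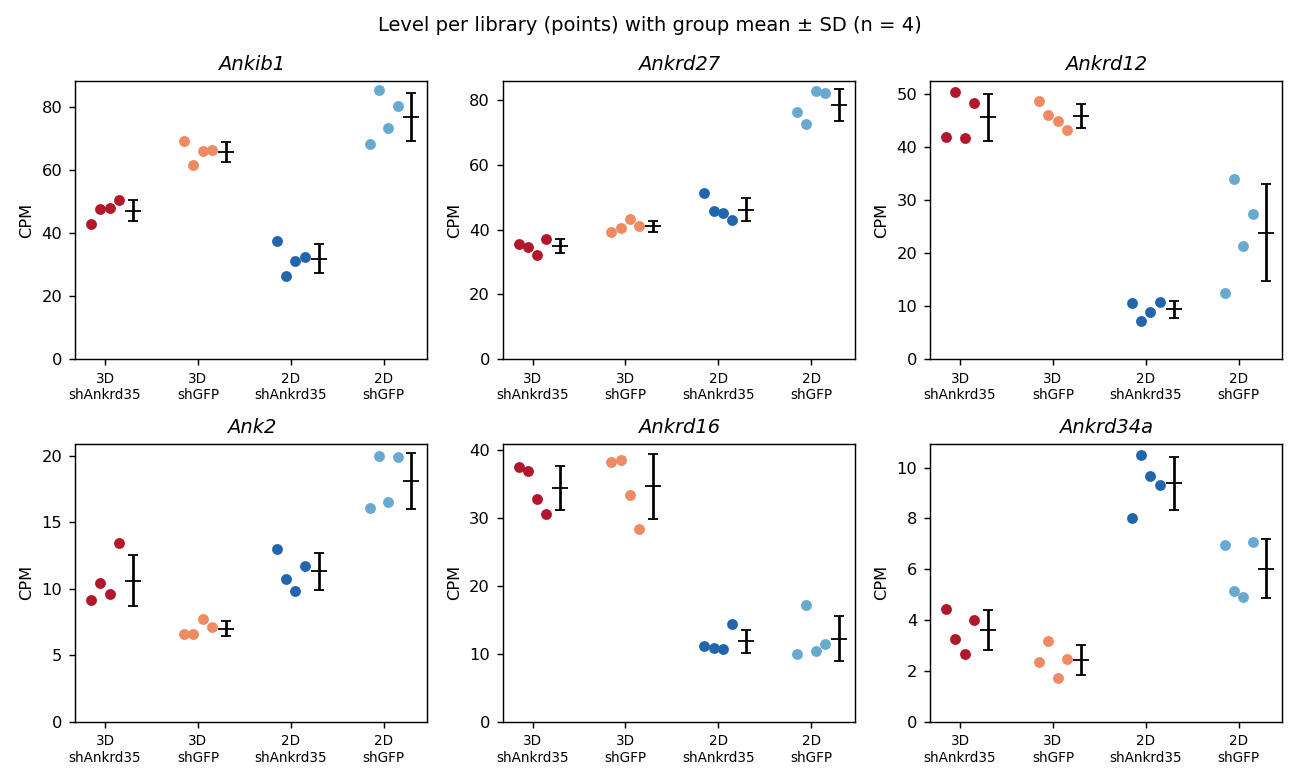
Level in CPM of Ankib1, Ankrd27, Ankrd12, Ank2, Ankrd16 and Ankrd34a, 1 point per library, with the mean and SD (n = 4) of each group. Ankib1 spans 42.8 to 50.6 CPM in 3D shAnkrd35 and 61.6 to 69.4 CPM in 3D shGFP, and 26.4 to 37.6 CPM in 2D shAnkrd35 and 68.3 to 85.4 CPM in 2D shGFP.

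Ankrd28, Ankrd44 and Ankrd52 encode the ankyrin repeat subunits of protein phosphatase 6. Ankrd44 had 13.2, 14.5, 15.2 and 15.0 CPM in 3D shAnkrd35, against 18.4, 16.5, 17.4 and 17.7 CPM in 3D shGFP, and 9.07, 7.85, 8.2 and 8.17 CPM in 2D shAnkrd35, against 11.1, 11.6, 12.3 and 10.8 CPM in 2D shGFP. The shAnkrd35 libraries lay below the shGFP libraries in both growth types with no overlap, at -0.28 (SE 0.07, adjusted p = 0.0067) in 3D and -0.46 (SE 0.07, adjusted p = 4.78e-05) in 2D, and Ankrd44 was higher in 3D, at 0.79 (SE 0.07, adjusted p = 5.04e-08) with shAnkrd35 and 0.61 (SE 0.07, adjusted p = 8.93e-07) with shGFP. In 3D the hairpin effect was -0.17 (SE 0.10, adjusted p = 0.193) for Ankrd28 and 0.07 (SE 0.06, adjusted p = 0.438) for Ankrd52. In 2D all 3 subunits fell with shAnkrd35, with -0.32 (SE 0.10, adjusted p = 0.00866) for Ankrd28 and -0.28 (SE 0.06, adjusted p = 0.000728) for Ankrd52. With the trend removed Ankrd52 alone of the 3 was still called in 2D, while Ankrd44 was at -0.18 (adjusted p = 0.0527) and Ankrd28 turned to 0.05 (adjusted p = 0.352). Between growth types Ankrd28 was higher in 3D with both hairpins, and Ankrd52 was higher with shAnkrd35, at 0.17 (SE 0.06, adjusted p = 0.0175), and lower with shGFP, at -0.18 (SE 0.06, adjusted p = 0.0126). Trend-removed, Ankrd28 turned to lower with shAnkrd35, at -0.13 (adjusted p = 0.00981), and stood at 0.07 (adjusted p = 0.123) with shGFP. The growth effect on Ankrd44 with shAnkrd35 was then 0.46, still called, and that on Ankrd52 with shGFP, -0.02 (adjusted p = 0.708), no longer was.

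Both Anks genes rose with shAnkrd35 in 2D. Anks1 encodes Odin, an adaptor of Eph receptors, and Anks3 a ciliary protein. Anks1 had 52.9, 52.7, 52.0 and 47.3 CPM in 3D shAnkrd35, against 43.6, 48.9, 42.5 and 44.3 CPM in 3D shGFP, and 55.5, 50.5, 52.2 and 50.9 CPM in 2D shAnkrd35, against 42.5, 37.2, 43.7 and 41.5 CPM in 2D shGFP. The groups overlapped in 3D and not in 2D, and the effects were 0.19 (SE 0.06, adjusted p = 0.0224) in 3D and 0.34 (SE 0.06, adjusted p = 0.000157) in 2D. The call in 3D was lost with the trend removed, at 0.06 (adjusted p = 0.451). Anks3 had 31.8, 33.0, 31.3 and 28.8 CPM in 3D shAnkrd35, against 28.7, 31.4, 32.5 and 25.9 CPM in 3D shGFP, and 28.3, 33.5, 33.6 and 34.1 CPM in 2D shAnkrd35, against 26.8, 26.9, 24.4 and 26.8 CPM in 2D shGFP. The groups overlapped in 3D and lay apart in 2D, where replicate 1 of shAnkrd35 was nearest to the shGFP libraries. Anks3 had 0.08 (SE 0.08, adjusted p = 0.472) in 3D and rose in 2D, at 0.30 (SE 0.08, adjusted p = 0.00315). That rise was 0.37 without both 2D libraries numbered 1 and 0.19 (adjusted p = 0.0273) with the trend removed. Neither gene was called between growth types.

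Ankrd34a, which lies near Ankrd35 on chromosome 3, had 4.44, 3.27, 2.67 and 4.0 CPM in 3D shAnkrd35, against 2.36, 3.16, 1.74 and 2.45 CPM in 3D shGFP. Ankrd34a had 8.01, 10.5, 9.68 and 9.31 CPM in 2D shAnkrd35, against 6.96, 5.13, 4.9 and 7.09 CPM in 2D shGFP. The 3D hairpin groups overlapped and the 2D groups did not, and every 3D library lay below every 2D library. Ankrd34a rose with shAnkrd35 in 3D, at 0.55 (SE 0.19, adjusted p = 0.0317), and in 2D, at 0.64 (SE 0.19, adjusted p = 0.00709). It was lower in 3D, at -1.38 (SE 0.19, adjusted p = 5.3e-06) with shAnkrd35 and -1.29 (SE 0.19, adjusted p = 1.09e-05) with shGFP, while its neighbour Ankrd35 was higher there. The call in 3D was lost without 1 library and under quantile normalization, where the adjusted p was 0.0709.

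Ankrd40 was the most abundant member per kb. It had 84.7, 86.8, 87.0 and 80.1 CPM in 3D shAnkrd35, against 98.1, 93.1, 96.9 and 96.0 CPM in 3D shGFP, and 102, 99.8, 98.9 and 101 CPM in 2D shAnkrd35, against 146, 134, 130 and 135 CPM in 2D shGFP. The 4 groups did not overlap at all, from lowest in 3D shAnkrd35 to highest in 2D shGFP. The hairpin effects were -0.18 (SE 0.04, adjusted p = 0.00342) in 3D and -0.44 (SE 0.04, adjusted p = 2.81e-07) in 2D, and the growth effects -0.25 (SE 0.04, adjusted p = 5.83e-05) with shAnkrd35 and -0.50 (SE 0.04, adjusted p = 1.71e-08) with shGFP. With the trend removed the first of the growth effects was -0.14, still called. Ankrd46 had 53.7, 55.7, 52.3 and 52.7 CPM in 3D shAnkrd35, against 60.4, 61.6, 59.7 and 65.6 CPM in 3D shGFP, and 79.6, 81.9, 77.4 and 78.9 CPM in 2D shAnkrd35, against 103, 93.8, 97.6 and 103 CPM in 2D shGFP. It followed the same order of groups, with hairpin effects of -0.21 (SE 0.04, adjusted p = 0.00189) in 3D and -0.32 (SE 0.04, adjusted p = 1.39e-05) in 2D and growth effects of -0.57 (SE 0.04, adjusted p = 9.53e-09) with shAnkrd35 and -0.68 (SE 0.04, adjusted p = 5.75e-10) with shGFP.

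Of the remaining members, 6 have low mean levels, from 1.15 CPM for Ankrd61 to 11.9 CPM for Ankrd49. Ankrd24, a protein of inner ear stereocilia, rose with shAnkrd35 in 3D, at 0.37 (SE 0.12, adjusted p = 0.0324), and in 2D, at 0.31 (SE 0.12, adjusted p = 0.0426), with ranges that overlap in both (6.13 to 8.03 CPM with shAnkrd35 and 5.11 to 6.47 CPM with shGFP in 3D, and 7.27 to 9.46 CPM with shAnkrd35 and 6.08 to 8.17 CPM with shGFP in 2D). The 2D call was lost on leaving out each of 5 libraries in turn, with an adjusted p up to 0.129. Both calls were lost with the trend removed, at 0.24 (adjusted p = 0.151) in 3D and 0.28 (adjusted p = 0.0689) in 2D. Ankrd61, whose exons overlap Eif2ak1 on the other strand over 7.4% of their length, fell in 2D, at -0.80 (SE 0.31, adjusted p = 0.0356), and this value was -0.43 (adjusted p = 0.142) without 2D shAnkrd35 replicate 2. Ankrd49 fell in 2D, at -0.35 (SE 0.14, adjusted p = 0.0464), with -0.20 and an adjusted p of 0.188 without 2D shGFP replicate 2, and it was higher in 3D with both hairpins, at 0.67 (SE 0.14, adjusted p = 0.000496) with shAnkrd35 and 0.56 (SE 0.14, adjusted p = 0.00241) with shGFP. All 3 directions turned with the trend removed: in 2D Ankrd49 was then at 0.08 (adjusted p = 0.518), and between growth types at -0.25 (adjusted p = 0.0305) with shAnkrd35, called lower, and -0.03 (adjusted p = 0.814) with shGFP. Ankrd42, whose exons overlap Ccdc90b on the other strand over 5.0%, fell in 2D, at -0.55 (SE 0.18, adjusted p = 0.0154), and reached 0.0628 without 1 library. Ankrd9 rose in 3D, at 0.32 (SE 0.12, adjusted p = 0.0459), a call lost with the trend removed, at 0.26 (adjusted p = 0.0625), and Ankrd39 was called in no comparison.

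Ankrd10 was higher in 3D, at 0.81 (SE 0.13, adjusted p = 3.25e-05) with shAnkrd35 and 0.58 (SE 0.13, adjusted p = 0.000734) with shGFP, and its hairpin effects were -0.03 (SE 0.13, adjusted p = 0.894) in 3D and -0.26 (SE 0.13, adjusted p = 0.0887) in 2D. Ankrd54, which binds the kinase Lyn, was lower in 3D, at -0.36 (SE 0.06, adjusted p = 6.67e-05) with shAnkrd35 and -0.30 (SE 0.06, adjusted p = 0.000516) with shGFP, and at -0.17 and -0.13 with the trend removed, still called. Asb3 was called once, lower in 3D with shAnkrd35, at -0.24 (SE 0.08, adjusted p = 0.0156). That value was -0.15 (adjusted p = 0.115) under library totals and -1.14 (adjusted p = 6.13e-08) with the trend removed, when Asb3 was also called lower in 3D with shGFP, at -0.54 (adjusted p = 0.000341), and below 0 in the difference of hairpin effects, at -0.60 (adjusted p = 0.00728). Asb6 was called in no comparison.

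Seen gene by gene, some members had the same call with shAnkrd35 in both growth types and others did not. In both growth types 6 members fell (Ankib1, Ankrd13b, Ankrd27, Ankrd40, Ankrd44 and Ankrd46) and 3 rose (Ankrd24, Ankrd34a and Anks1), and 11 were called in neither. That is 14.6%, 7.32% and 26.8% of the members, beside 7.66%, 9.07% and 32.1% of all genes. With the trend removed, Ankrd44 was no longer called in 2D, Anks1 no longer in 3D and Ankrd24 in neither. Among the 6 that fell, the difference between the growth types was called for Ankib1, Ankrd13b, Ankrd27 and Ankrd40 and not for Ankrd44, at 0.18 (SE 0.10, adjusted p = 0.169), or Ankrd46, at 0.12 (SE 0.06, adjusted p = 0.152). The differences of Ank2 (1.26), Ankrd12 (1.26) and Ankrd26 (1.24) were the 3 past 2-fold.

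**Figure D4:**
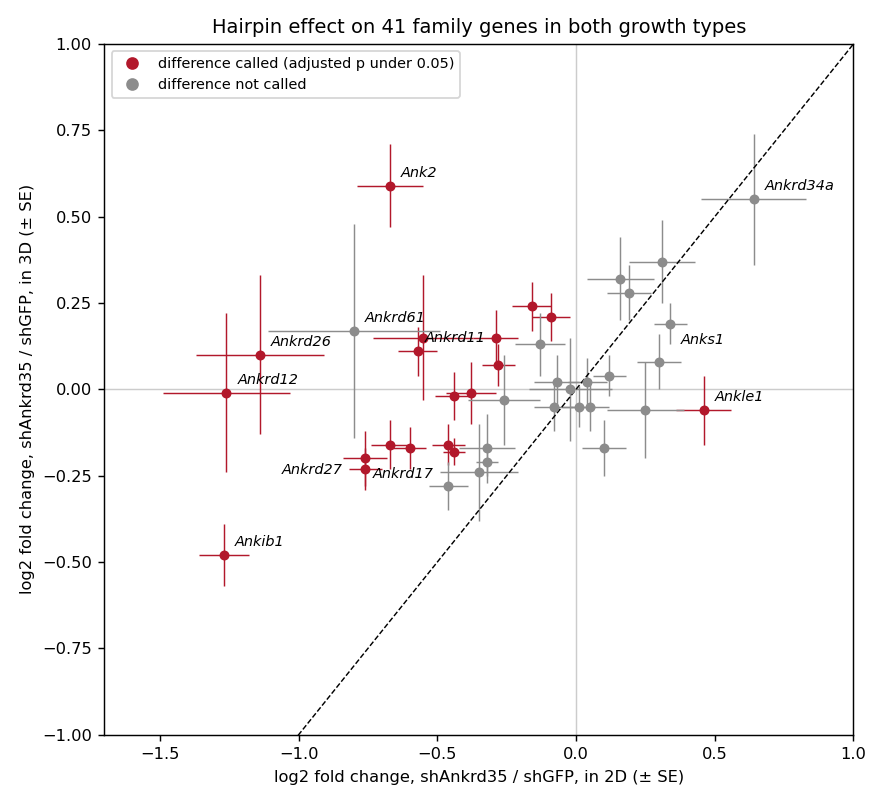
Hairpin effect (log2 fold change, shAnkrd35 over shGFP) in 3D on the vertical axis against that in 2D on the horizontal axis for the 41 members, with bars of 1 SE and in red the 19 members whose difference was called. Ankib1, at -0.48 in 3D and -1.27 in 2D, is the lowest in both, while Ank2, at 0.59 and -0.67, lies in the quadrant of opposite signs.

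Fold changes varied with base composition over the whole table, and over the members alone the coefficients had the same sign. In 2D the hairpin effect had a Spearman coefficient with transcript GC content of 0.40 over the 41 members and 0.40 over 12216 genes. With exonic length the coefficients were -0.41 and -0.32. For 3D against 2D with shAnkrd35 the coefficients with GC were -0.38 and -0.47. These describe genes that share the same libraries. The slope of log2 level on GC, per 10 points of GC and relative to the mean library, was -0.265 to -0.121 in 3D shAnkrd35 and -0.295 to -0.233 in 3D shGFP. It was 0.260, 0.528, 0.407 and 0.285 in replicates 1 to 4 of 2D shAnkrd35, against 0.287, -0.101, 0.117 and -0.009 in 2D shGFP, where replicate 1 stood with the shAnkrd35 libraries. The groups thus differ in this slope, and the part of library preparation in it was not tested.

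With the length and GC trend of each library removed, the downward shift in 2D was smaller and the number of calls close. In 3D 4 members were higher and 12 lower, beside 15.2% and 18.3% of all genes: Ank2 kept its rise at 0.43, Ank3, Anks1, Ankrd9 and Ankrd24 lost theirs, and Ankrd13a, Ankrd17, Ankrd28, Ankrd50, Ankrd54 and Ank1 became lower. In 2D 17 members were lower and 7 higher with shAnkrd35, beside 27.6% and 29.3% of all genes, and the median member moved to -0.10. The 17 were all among the 21, while Ankrd13c, Ankrd28, Ankrd44 and Ankrd49 lost the call and Asb3, Ankfy1 and Ank3 became higher. Ankib1 stood at -1.05, Ankrd26 at -0.90, Ankrd27 at -0.81, Ankrd12 at -0.70, Ankrd11 at -0.46 and Ank2 at -0.33.

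Between growth types, removing the trend gave 15 members higher and 15 lower with shAnkrd35 (29.6% and 38.3% of all genes) and 11 higher and 17 lower with shGFP (31.2% and 37.2%). With shAnkrd35 Ankrd12 was at 1.27, Ankrd26 at 1.15 and Ankib1 at 0.23, and Ank2 became lower in 3D at -0.37. The difference of hairpin effects was above 0 for 15 members and below 0 for 4, beside 17.3% and 20.1% of all genes, with a median of 0.13. Ankhd1, Ankrd13c, Ankrd17 and Ank3 lost that call, Ankrd17 with a difference of 0.01, and Ankrd28, Anks1 and Asb3 joined Ankle1 below 0.

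**Figure D5:**
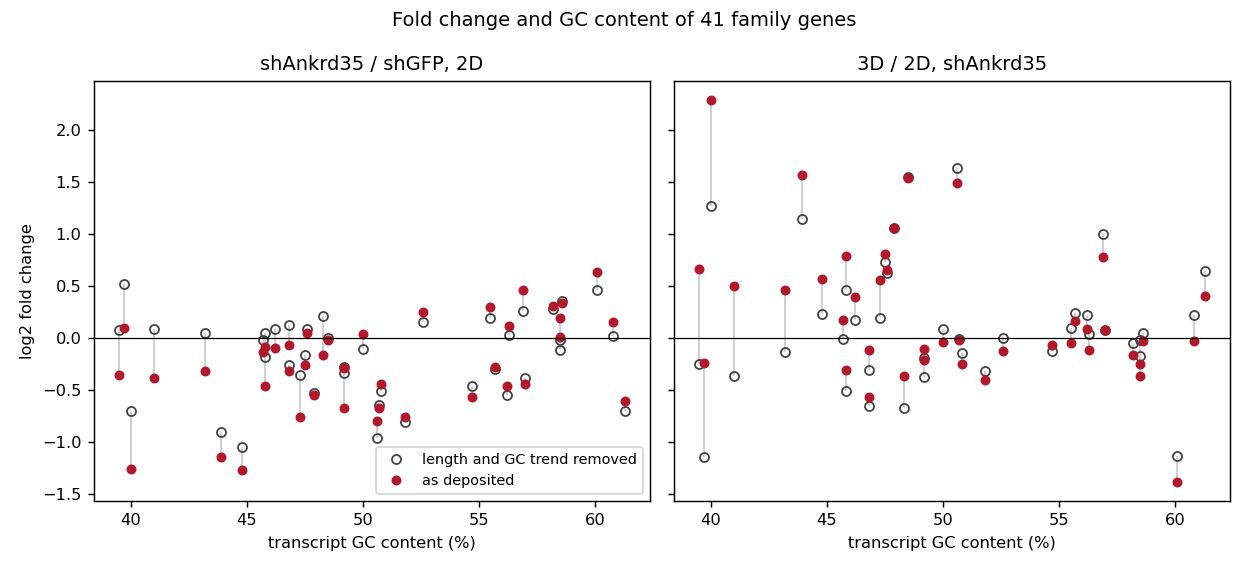
Log2 fold change of each member against the GC content of its longest transcript (percent), for shAnkrd35 against shGFP in 2D and for 3D against 2D with shAnkrd35, as deposited (filled) and with the length and GC trend removed (open). Ankrd12, among the members lowest in GC, lies at -1.26 and -0.70 in the hairpin comparison and at 2.29 and 1.27 in the growth comparison.

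The other genes of these pathways were taken from lists, which were chosen with earlier results of these data known. Genes named with a value were among those called at the smallest p in their list. The counts of the lists read against 15.0% of all genes higher and 14.6% lower with shAnkrd35 in 3D, and 29.0% and 28.8% in 2D. Of 64 tested genes among 76 other ankyrin repeat proteins, 5 rose and 10 fell with shAnkrd35 in 3D, and 12 rose and 25 fell in 2D, with a median of -0.11. Examples are Notch1, the receptor, which rose in 3D (0.73, SE 0.06, adjusted p = 6.54e-08) and in 2D (0.45, SE 0.06, adjusted p = 6.64e-06), and Notch3, which fell in 3D (-1.18, SE 0.13, adjusted p = 3.92e-06). Tnks2, a tankyrase, fell in 2D (-0.76, SE 0.10, adjusted p = 1.24e-05). The difference of hairpin effects was above 0 for 21 and below for 11 of the 64, beside 17.1% and 18.6% of all genes, and the median was 0.23 over the family's own 41 members, against 0.15 over these 64.

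A list around the cullin 5 ligase that Asb proteins join holds its core and other genes, among them Socs2, Socs3, Socs5, Socs6, Socs7 and Ube2m. Of the 21 tested genes 3 rose and 2 fell with shAnkrd35 in 3D (all genes 15.0% and 14.6%). In 2D 8 rose and 8 fell (all genes 29.0% and 28.8%). The same shares apply to the hairpin counts of the lists that follow. Rnf7, the RING subunit of the cullin 5 ligase, rose in 2D (0.68, SE 0.07, adjusted p = 5.73e-07). Of 20 tested partners of the canonical ankyrins, from spectrins and adducins to membrane cargo, 7 rose and 2 fell in 3D, and 6 rose and 5 fell in 2D. Of 11 tested partners of VARP and retromer, 2 rose and 1 fell in 3D, and 4 rose and 3 fell in 2D. Of 12 genes of BAF and nuclear envelope reassembly, 1 rose and 1 fell in 3D, and 3 rose and 2 fell in 2D. Between growth types, 2 of these were higher and 8 lower in 3D with shAnkrd35, beside 34.4% and 36.0% of all genes. With shGFP 2 were higher and 7 lower, beside 35.2% and 32.1%. Of the 21 genes around cullin 5, 6 were higher and 12 lower in 3D with shAnkrd35, and 7 and 6 with shGFP. Of 4 protein phosphatase 6 genes 0 rose and 1 fell with shAnkrd35 in 3D, and 1 rose and 2 fell in 2D. Of 8 ciliary partners 1 rose and 2 fell in 3D, and 1 rose and 4 fell in 2D.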

How the data were processed

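The authors deposited log2 expression values for 16 libraries. The values show log2 CPM, scaled to effective library sizes, with a mean of 2 reads added as a prior. Taking the prior off gave whole reads for 100% of values (tolerance 0.01), and these gave the CPM and reads printed here. The authors' tools, per the submitters' processing notes, include edgeR, STAR 2.5.1b and Trimmomatic 0.38, and the build is mm10. Which counter and annotation they took, and whether strand counted, is not given in the sources used here. All 12320 genes past the filter had at least 1 CPM in 8 libraries, so the table was filtered before deposit. 0 columns belonged to other samples, and 12217 symbols matched and 104 did not match GENCODE, which gave length and GC. GC content is that of each gene's longest transcript, and exonic length that of its merged exons.

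limma 3.58.1 (R 4.3.3, statmod 1.5.0; trend and robust) fitted the log2 values with a mean for each of the 4 groups, and P-values were adjusted by Benjamini-Hochberg over 12320 genes. Rose, fell, higher and lower mean an adjusted p under 0.05. Fold changes include the prior and understate changes of low genes. The trend on length and GC was removed per library with splines of 5 degrees of freedom. Ankrd35 was tested by exact permutation of CPM. The limma fit was tested on simulated reads with known changes in 2D shAnkrd35 only and without a GC trend. The removal of the trend was not tested in that way. Python 3.11.15, pandas 2.3.3, numpy 2.4.6, scipy 1.17.1 and matplotlib 3.10.9 were used.

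Members, lists and alternatives were chosen with earlier results of these data known. Values in every library are given for Ankrd35, for the 5 highest and 5 lowest called members with no overlap in each hairpin comparison and in 3D against 2D with shGFP (3 each way with shAnkrd35), for up to 6 members by the p of the difference, and for the most abundant member per kb of each subfamily.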

Additional observations from a re-analysis of the deposited data

Results flagged for a closer look

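Among 96 sets of 4 libraries (24 members with values in every library, 4 groups), 4 held a library far from the other 3, with a gap over the group's range above Dixon's critical value at 95%. Chance gives about 1 in 20 such sets. Ankrd16 had 14.4 CPM in replicate 4 of 2D shAnkrd35, against 10.7 to 11.2 CPM in the other 3 libraries. Anks1 had 47.3 CPM in replicate 4 of 3D shAnkrd35, against 52.0 to 52.9 CPM in the others. Anks3 had 28.3 CPM in replicate 1 of 2D shAnkrd35, against 33.5 to 34.1 CPM, and 24.4 CPM in replicate 3 of 2D shGFP, against 26.8 to 26.9 CPM.

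The other 19 results are members whose hairpin effect differed between growth types by limma's test of the difference itself, 3D minus 2D. Ank2 (1.26), Ankrd12 (1.26) and Ankrd26 (1.24) differed most on the log2 scale. Ankib1 stood at 0.79, Ankrd42 at 0.71, Ankrd11 at 0.68, Ankrd17 at 0.56, Ankrd27 at 0.53 and Ankrd50 at 0.51. Asb1 stood at 0.45, Ankrd13b at 0.43, Ank1 at 0.42, Ank3 at 0.40, Ankrd13c at 0.37, Ankrd52 at 0.35, Ankhd1 and Ankrd13a at 0.31, and Ankrd40 at 0.26. Ankle1, at -0.51, was the member with a lower effect in 3D. These values are as deposited. Over the alternative runs the difference ran from 0.2 to 0.48 for Ank1 and from 0.42 to 0.79 for Ankrd11. It ran from 0.01 to 0.7 for Ankrd17, -0.12 to 0.5 for Ank3, -0.06 to 0.51 for Ankrd13c and 0.13 to 0.43 for Ankhd1. Those 4 lost the call with the trend removed, and Ankrd42 lost it in 13 of 28 runs. Of the 18 above 0, 13 kept the call in every run, as did Ankle1 below 0.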

How the results depend on the processing

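Of 111 called member results, 77 kept their direction and their call under every alternative run. With the length and GC trend removed, with or without the replicate block, these turned: Ankrd13c to 0.09 in 2D with shAnkrd35, -0.36 in 3D against 2D with shAnkrd35 and -0.06 in the difference. Ankrd28 turned to 0.05 and -0.13 in the same first 2 comparisons, and Ankrd49 to 0.08 and -0.25, and to -0.03 in 3D against 2D with shGFP. Ank3 turned to -0.12 in the difference. The trend's removal gave 4 members higher and 12 lower (11 with the replicate block) for the hairpin in 3D, and 4 below 0 in the difference; its cause was not tested. A fit on 8 libraries gave 11 lower for the hairpin in 3D, library totals 13 higher in 3D with shGFP, and leaving out both 2D libraries numbered 1 gave 2 below 0 in the difference.

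Leaving out 1 library gave, for the hairpin in 3D, 2 to 7 higher and 5 to 6 lower, and in 2D 4 to 6 and 18 to 25. For 3D against 2D it gave 16 to 19 and 8 to 11 with shAnkrd35, and 8 to 10 and 15 to 17 with shGFP. In the difference it gave 15 to 19 above and 1 to 3 below 0. The log2 ratio of Ankrd35 ran from -0.39 to -0.17 for the hairpin in 3D, -0.63 to 0.10 in 2D, and for 3D against 2D from 1.1 to 1.81 with shAnkrd35 and 1.17 to 1.78 with shGFP.

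Replicate numbers did not pair the libraries: correlations of same-numbered deviations ran from -0.48 to 0.21. The replicate block gave 7 higher and 6 lower for the hairpin in 3D, 5 and 22 in 2D, 17 and 10 for 3D against 2D with shAnkrd35, 8 and 16 with shGFP, and 17 and 1 in the difference.

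Depth limits Ankrd35, with 1 to 17 reads a library, and the other members of the lowest levels. Genes below the deposited table's own limit were not analysed here.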
